A study of Caenorhabditis elegans with 12 samples.

Results

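The vitellogenin genes vit-1 to vit-6 encode the yolk proteins of Caenorhabditis elegans. They were followed here through every probe set of the array whose single platform symbol was one of these 6 names. The choice gave 8 probe sets of the 22548 tested and covered 5 of the 6 genes, out of 17118 genes with such a probe set: 3 for vit-4, 2 for vit-6 and 1 each for vit-1, vit-2 and vit-5. No probe set carried vit-3 as its single symbol, so vit-3 is not analysed here. In the order of genes in RefSeq, vit-1 to vit-5 lie on chromosome X, where vit-3 and vit-4 are neighbours, and vit-6 lies on chromosome IV.

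Vitellogenins are large lipid-binding proteins made in the intestine of the adult hermaphrodite, with transcription beginning late in larval life. They are secreted into the body cavity and taken up by growing oocytes through the receptor RME-2, and the embryo and young larva later use them as food. The genes vit-1 to vit-5 belong to the family of the heavy yolk proteins, while vit-6 encodes a more distant precursor that is cut into the smaller ones.

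The 12 arrays fell into 4 groups of 3, all from whole animals at the fourth larval stage (L4) grown from synchronised L1 larvae. They were MT KO with 30 µM Cd, MT KO without Cd, wild type with 30 µM Cd and wild type without Cd. MT KO is the genotype mtl-1,mtl-2(zs1), which lacks both metallothionein genes, the genes of small cysteine-rich proteins that bind metals. The labels give N2 (Bristol) as the strain of every sample, 20 °C for the parents, and Escherichia coli as food. They do not say whether the 3 arrays of a group came from separate cultures, so a p-value here measures only how much these arrays vary, and that variation may be technical.

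Values are on a log2 scale, on which a step of 1 doubles the signal. The median of all values on the 12 arrays was 4.03, and a probe set with a group mean at or below it is called near background in that group. The deleted genes fitted their labels: the mtl-1 probe set read 3.83 to 4.26 in MT KO with Cd and 9.58 to 10.28 in wild type with Cd, while the 3 mtl-2 probe sets read 3.56 to 5.78 in MT KO and 8.93 to 11.81 in wild type. The labels do not say which part of either gene is missing. The log2 ratio of 3' to 5' control signal, a measure of RNA integrity and amplification, was 0.739 to 1.07 in MT KO with Cd, 1.27 to 1.48 in MT KO without Cd, 1.03 to 1.22 in wild type with Cd and 1.28 to 2.81 in wild type without Cd, with the highest value on wild type replicate 1 without Cd. Every array with Cd thus had a lower ratio than every array without Cd. The comparison of groups with and without Cd cannot tell Cd and this measure apart.

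Cadmium was accompanied by lower vit-1, vit-2 and vit-6 signal in both strains, while vit-4 and vit-5 stayed near background in every group. Between animals with and without Cd, vit-6 was 12.1-fold and 7.10-fold lower in MT KO and 14.8-fold and 10.8-fold lower in wild type at its 2 probe sets. The corresponding fall of vit-1 was 5.0-fold in MT KO and 5.95-fold in wild type, and that of vit-2 was 2.54-fold and 2.98-fold. In whole animals, fewer cells of a type and less RNA per cell cannot be told apart.

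**Figure D1:**
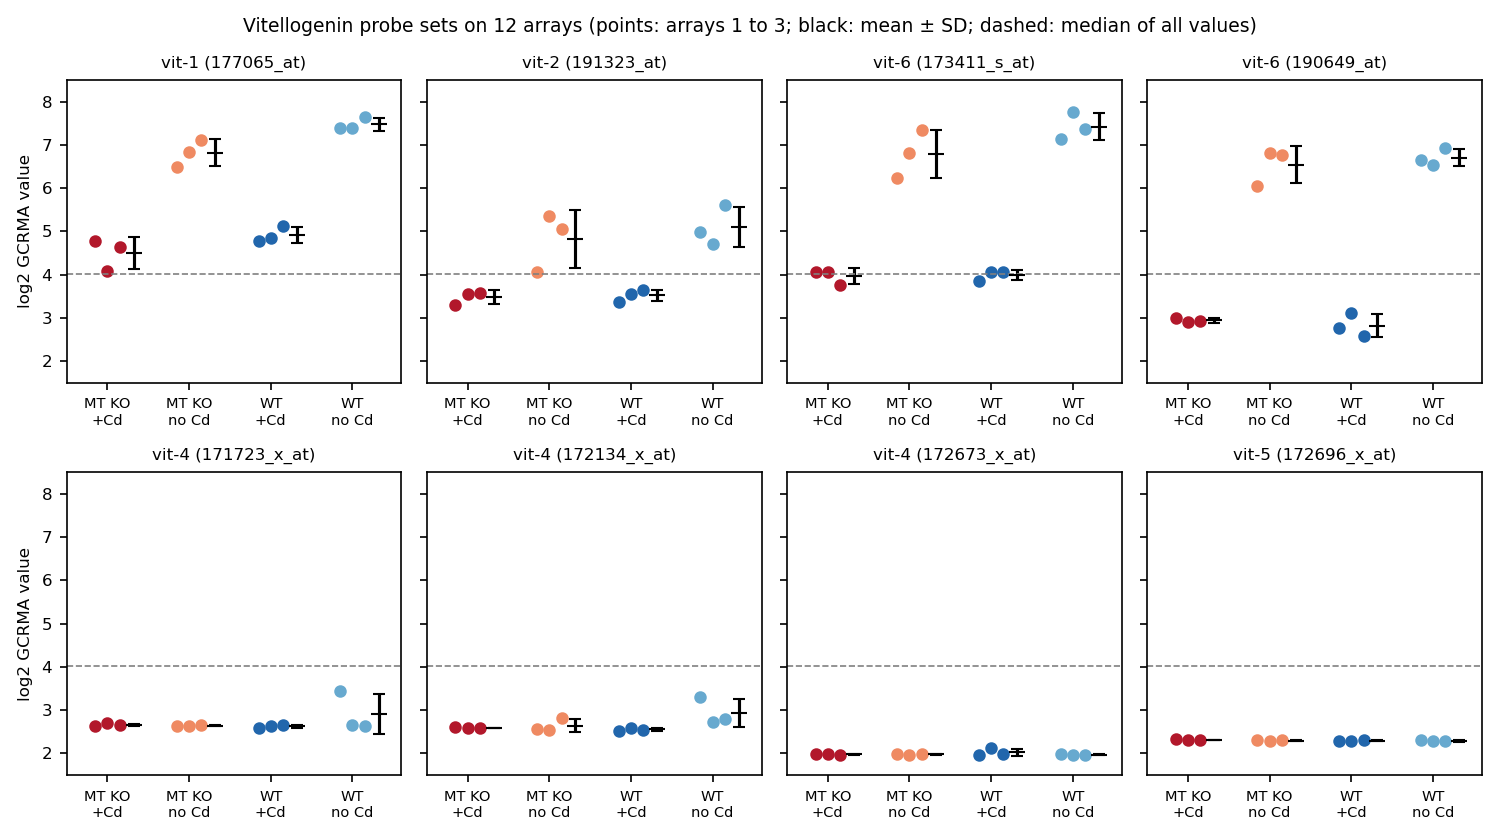
Log2 signal of each of the 8 vitellogenin probe sets on the 12 arrays, with 1 point per array and a black mark for the mean ± SD of each group; the dashed line marks the median of all values, 4.03. With Cd, the points of vit-1, vit-2 and vit-6 lie below those without Cd in both strains, and those of vit-4 and vit-5 lie below the line throughout.

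The gene vit-6 was read by probe sets 190649_at and 173411_s_at. At 190649_at the signal was 3.0, 2.90 and 2.93 in MT KO with Cd, against 6.05, 6.81 and 6.77 in MT KO without Cd. In wild type it was 2.78, 3.11 and 2.58 with Cd, against 6.65, 6.54 and 6.92 without Cd. All 6 arrays with Cd were therefore near background and all 6 without Cd well above it, with a gap between them larger than the range inside any group. The log2 difference, with minus without Cd, was -3.60 (SE 0.21, 95% CI -4.07 to -3.13) in MT KO, with a limma adjusted p of 4.71e-06. In wild type it was -3.88 (SE 0.21, 95% CI -4.35 to -3.42), with a limma adjusted p of 3.99e-06.

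The other vit-6 probe set gave the same picture with a smaller step. The suffix of its name marks a set that can bind more than 1 transcript. Its signal was 4.07, 4.07 and 3.75 in MT KO with Cd, against 6.23, 6.82 and 7.33 in MT KO without Cd. In wild type, 173411_s_at read 3.86, 4.06 and 4.06 with Cd and 7.14, 7.75 and 7.38 without Cd. Again no array with Cd reached the lowest array without Cd of its strain. The differences were -2.83 (SE 0.25, limma adjusted p 4.95e-05) in MT KO and -3.43 (SE 0.25, limma adjusted p 3.28e-05) in wild type. Both Cd means of this probe set, 3.96 ± 0.18 in MT KO and 3.99 ± 0.12 in wild type (SD, n = 3 each), were just under the median of all values. A fold computed against a group near background depends on where the background lies.

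The gene vit-1, read by 177065_at, was the member above the median of all values in all 4 groups. Its signal was 4.77, 4.07 and 4.65 in MT KO with Cd, against 6.5, 6.84 and 7.12 in MT KO without Cd. In wild type, vit-1 read 4.77, 4.84 and 5.12 with Cd, against 7.39, 7.40 and 7.65 without Cd. The groups with and without Cd did not overlap in either strain. The log2 difference was -2.32 (SE 0.20, 95% CI -2.78 to -1.86) in MT KO, with a limma adjusted p of 4.41e-05, and -2.57 (SE 0.20, 95% CI -3.03 to -2.11) in wild type, with a limma adjusted p of 5.33e-05.

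The gene vit-2, whose product is one of the heavy yolk proteins, moved least of the 3 genes that passed the test. Probe set 191323_at read 3.30, 3.56 and 3.58 in MT KO with Cd, against 4.07, 5.36 and 5.05 in MT KO without Cd. In wild type the vit-2 signal was 3.37, 3.55 and 3.64 with Cd and 4.97, 4.70 and 5.61 without Cd. Arrays with Cd were again below all arrays without Cd of the same strain, although MT KO replicate 1 without Cd, at 4.07, came close. The difference was -1.35 (SE 0.32, 95% CI -2.06 to -0.63, limma adjusted p 0.0133) in MT KO and -1.57 (SE 0.32, 95% CI -2.29 to -0.86, limma adjusted p 0.0112) in wild type. With the 6 MT KO arrays fitted alone, the limma adjusted p of vit-2 was 0.0553.

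The 3 vit-4 probe sets and the vit-5 probe set were near background in all 4 groups, with signals of 1.96 to 3.44. The names of all 4 carry the suffix of sets whose probes can also bind other transcripts, and vit-3, vit-4 and vit-5 are close in sequence, so these readings cannot be assigned to 1 gene with certainty. At vit-5, 172696_x_at, the 12 values ran from 2.28 to 2.32. The vit-4 set 172673_x_at read 1.96 to 2.12. The other vit-4 sets were raised above their own floor on few arrays: 171723_x_at read 3.44 on wild type replicate 1 without Cd and 2.58 to 2.69 on the other arrays. At 172134_x_at wild type read 2.53, 2.59 and 2.55 with Cd, against 3.31, 2.72 and 2.78 without Cd, a difference of -0.38 (limma adjusted p 0.119). At 171723_x_at and 172134_x_at the highest reading was on wild type replicate 1 without Cd, the array with the highest 3' to 5' ratio. None of these 4 probe sets passed the test in any of the 5 comparisons, and for signals near background this says little about the genes.

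**Figure D2:**
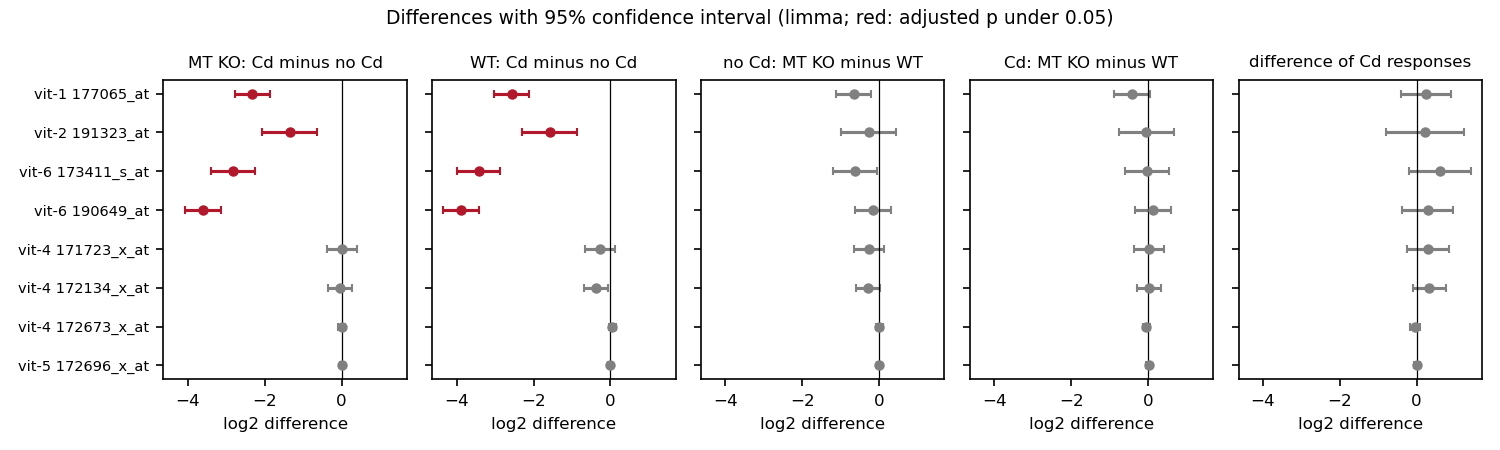
Log2 differences of the 8 vitellogenin probe sets in each of the 5 comparisons, with 95% confidence intervals from the limma fit. The intervals of vit-1, vit-2 and vit-6 lie wholly below 0 for Cd in both strains, while the differences between strains and between Cd responses lie nearer 0.

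Counted over the family, 4 of 8 members fell with Cd in MT KO and the same 4 in wild type, with no member higher in either strain. Among all probe sets, 11.0% fell and 11.5% rose with Cd in MT KO, and 5.50% fell and 6.44% rose in wild type. The members whose 3 arrays with Cd all lay below the 3 without numbered these 4 in MT KO, and in wild type these 4 and 172134_x_at. The background shares of such a pattern were 15.9% in MT KO and 11.5% in wild type. The median member difference was -0.70 in MT KO, against 0.02 over all probe sets, and -0.98 in wild type, against 0.002 over all probe sets. This median lies between the 4 members that fell and the 4 near background in every group, and describes no single probe set. Of the 4 that fell, 2 read the same gene, vit-6. In MT KO, 14 probe sets of the array had a larger fall than vit-6 at 190649_at, 70 than vit-6 at 173411_s_at, 180 than vit-1 and 645 than vit-2. In wild type those numbers were 2, 8, 17 and 90.

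**Figure D3:**
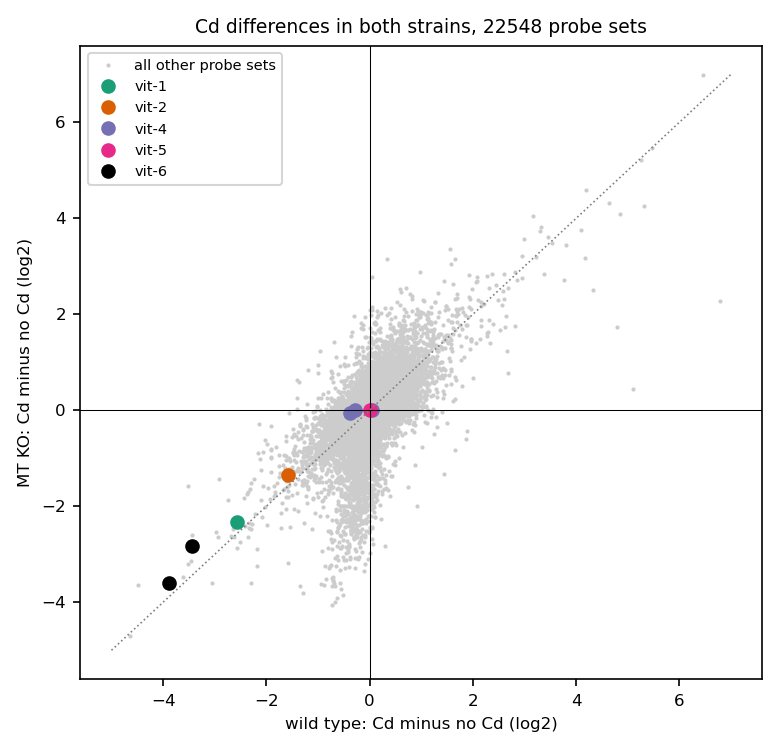
Log2 difference with Cd in MT KO (vertical) and in wild type (horizontal) for all 22548 probe sets in grey, with the vitellogenin probe sets marked. The vit-1, vit-2 and vit-6 points lie in the lower left, at -1.35 to -3.60 in MT KO and -1.57 to -3.88 in wild type, and vit-4 and vit-5 lie near 0.

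Between strains, no member passed the test. Without Cd the count was 0 of 8, against a background of 1.65% of probe sets called in either direction, and 2 of 8 had an unadjusted p under 0.05, against 14.9% of all probe sets. These were vit-1, at -0.66 in MT KO minus wild type (95% CI -1.12 to -0.20, limma adjusted p 0.158), and vit-6 at 173411_s_at, at -0.63 (95% CI -1.20 to -0.06, limma adjusted p 0.277). All 3 vit-1 values in MT KO without Cd were below those of wild type without Cd, a pattern shown by 7.42% of probe sets. The second vit-6 probe set differed by -0.16 (95% CI -0.63 to 0.30), so the 2 readings of this gene did not give the same size. At vit-2 the strains differed by -0.27 (95% CI -0.98 to 0.45).

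With Cd the estimated strain differences at vit-1, vit-2 and vit-6 were smaller than without Cd. However, vit-2 and vit-6 were then near background in both strains, which limits the strain differences that can be read there. Again 0 of 8 members passed, against a background of 8.56%, and 0 had an unadjusted limma p under 0.05, against 19.9%. The difference, MT KO minus wild type, was -0.41 at vit-1 (95% CI -0.87 to 0.05, limma adjusted p 0.316), -0.04 at vit-2 (95% CI -0.76 to 0.68), -0.03 at vit-6 173411_s_at (95% CI -0.60 to 0.54) and 0.12 at vit-6 190649_at (95% CI -0.34 to 0.59). All 3 vit-1 values in MT KO with Cd were below those of wild type with Cd, a pattern shown by 11.5% of probe sets. The nearest values of the 2 strains were 4.767 in MT KO and 4.769 in wild type.

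Whether the strains differed in their response to Cd was asked by the interaction, the Cd difference of MT KO minus that of wild type. It passed for 0 of 8 members, against a background of 5.45%, and 0 had an unadjusted p under 0.05, against 16.9%. The estimate was 0.25 at vit-1 (95% CI -0.40 to 0.90), 0.23 at vit-2 (95% CI -0.79 to 1.24), 0.60 at vit-6 173411_s_at (95% CI -0.20 to 1.41) and 0.28 at vit-6 190649_at (95% CI -0.38 to 0.94). All 4 were above 0, the direction of a smaller fall in MT KO, but every interval spans 0. A difference of up to 1.41 log2 units at vit-6 is not excluded by its interval. With Cd, vit-2 and vit-6 were near background in both strains, which limits the falls that can be read there. The 2 Cd differences share no array.

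Ordered by group mean, vit-1, vit-2 and vit-6 at 173411_s_at were lowest in MT KO with Cd, followed by wild type with Cd, MT KO without Cd and wild type without Cd. Neighbours of the same Cd treatment in that order did not pass the test. At vit-6 190649_at the groups with Cd stood the other way round, at 2.94 ± 0.05 in MT KO and 2.82 ± 0.27 in wild type (SD, n = 3 each), both near background.

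Across the 12 arrays the 4 informative probe sets rose and fell together, with Pearson correlations of 0.920 to 0.982 between pairs. Informative here means at least 1 group mean above the median of all values, which vit-2 and vit-6 met only without Cd. These arrays share 2 levels of Cd and the same 4 groups. High correlations over the 12 arrays therefore follow in part from that choice and are only a description. After subtraction of group means the correlations were 0.388 to 0.785. The highest was that of vit-2 with vit-6 190649_at. Within MT KO without Cd, replicate 1 was the lowest array at all 4 probe sets, and the range inside that group was 0.62 at vit-1, 1.29 at vit-2, 1.11 at vit-6 173411_s_at and 0.77 at vit-6 190649_at.

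Other genes of the yolk pathway were described from lists, each gene by its brightest probe set with 1 symbol. Across all probe sets, 11.0% fell and 11.5% rose with Cd in MT KO, and 5.50% fell and 6.44% rose in wild type. In either direction 22.5% passed in MT KO and 11.9% in wild type. List counts of falls or of rises are read beside the shares of that direction, and counts of both beside the shares in either direction. Of 7 measured genes for the assembly and export of secreted lipoproteins, 3 fell with Cd in MT KO and 2 in wild type, and none was higher. The gene dsc-4, which encodes the large subunit of the microsomal triglyceride transfer protein that loads lipid onto lipoproteins, read 8.03 ± 0.06 in MT KO with Cd and 8.54 ± 0.08 in MT KO without Cd (SD, n = 3 each). Its difference was -0.51 in MT KO (limma adjusted p 0.00932) and -0.49 in wild type (limma adjusted p 0.0208). In wild type the dsc-4 call was lost without replicate 3 of wild type without Cd (limma adjusted p 0.0555) and without replicate 1 or 2 of wild type with Cd (0.0687 and 0.0747), and with the 6 wild-type arrays fitted alone (0.112).

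The other assembly genes that passed act in the endoplasmic reticulum and at its exit. In MT KO, pdi-2, a protein disulphide isomerase that helps secreted proteins fold, fell by 0.75 (SE 0.12, limma adjusted p 0.00169), and its difference in wild type was -0.10 (limma adjusted p 0.787). The coat protein gene sec-24.1, whose product packs cargo into vesicles leaving the endoplasmic reticulum, fell by 0.74 in MT KO (SE 0.08, limma adjusted p 0.000113). Its wild-type call, -0.29 (limma adjusted p 0.0388), was lost in 13 of 19 alternative settings, 8 of which each left out 1 array. The difference for sft-4, the cargo receptor of yolk lipoproteins in the intestine, was -0.38 in MT KO (limma adjusted p 0.134) and -0.05 in wild type.

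No gene of the uptake side fell with Cd. Of 13 measured genes for the yolk receptor and endocytosis, 0 passed with Cd in MT KO, and 3 were higher and 0 lower in wild type. The receptor gene rme-2 read 4.30 ± 0.05 in MT KO with Cd and 4.17 ± 0.20 in MT KO without Cd, a difference of 0.13 (limma adjusted p 0.534). In wild type rme-2 was 4.89 ± 0.24 with Cd and 4.33 ± 0.05 without Cd (SD, n = 3 in each group), a rise of 0.56 (SE 0.12, limma adjusted p 0.0177). That call was lost when replicate 2 or 3 of wild type without Cd (limma adjusted p 0.0538 and 0.0508) or replicate 1 or 3 of wild type with Cd (0.0515 and 0.0588) was left out, with the 6 wild-type arrays fitted alone (0.0616) and with the 3' to 5' ratio as a covariate (0.0815). The interaction did not pass (limma adjusted p 0.247). The other 2 genes that rose in wild type were chc-1, the clathrin heavy chain, and rab-5, a small GTPase of early endosomes. Their calls were lost in 3 and 14 of 19 alternatives, chc-1 when replicate 3 of wild type with Cd was left out and rab-5 in 10 of the 12 settings without 1 array.

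Among 5 genes of lysosomal yolk breakdown, 2 fell with Cd in each strain. The cathepsin L gene cpl-1 read 10.09 ± 0.11 in MT KO with Cd and 10.92 ± 0.22 in MT KO without Cd, and 9.86 ± 0.08 in wild type with Cd and 10.70 ± 0.15 in wild type without Cd (SD, n = 3 each). Its differences were -0.83 in MT KO (limma adjusted p 0.000585) and -0.84 in wild type (limma adjusted p 0.00125). The second was cpr-6, a cathepsin B gene, at -0.68 in MT KO (limma adjusted p 0.0176) and -0.86 in wild type (limma adjusted p 0.0104). In MT KO the cpr-6 call was lost without replicate 2 or 3 of MT KO without Cd (0.0649 and 0.0629) or replicate 1 or 2 of MT KO with Cd (0.0601 and 0.0620), with the 6 MT KO arrays fitted alone (0.0715) and with the 3' to 5' ratio as a covariate (0.0593). In wild type it was lost with the 3' to 5' ratio as a covariate (limma adjusted p 0.123). The aspartyl protease gene asp-1 was the 1 member higher in wild type (limma adjusted p 0.0491), a call lost in 17 of 19 alternatives, of which 10 left out 1 array.

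**Figure D4:**
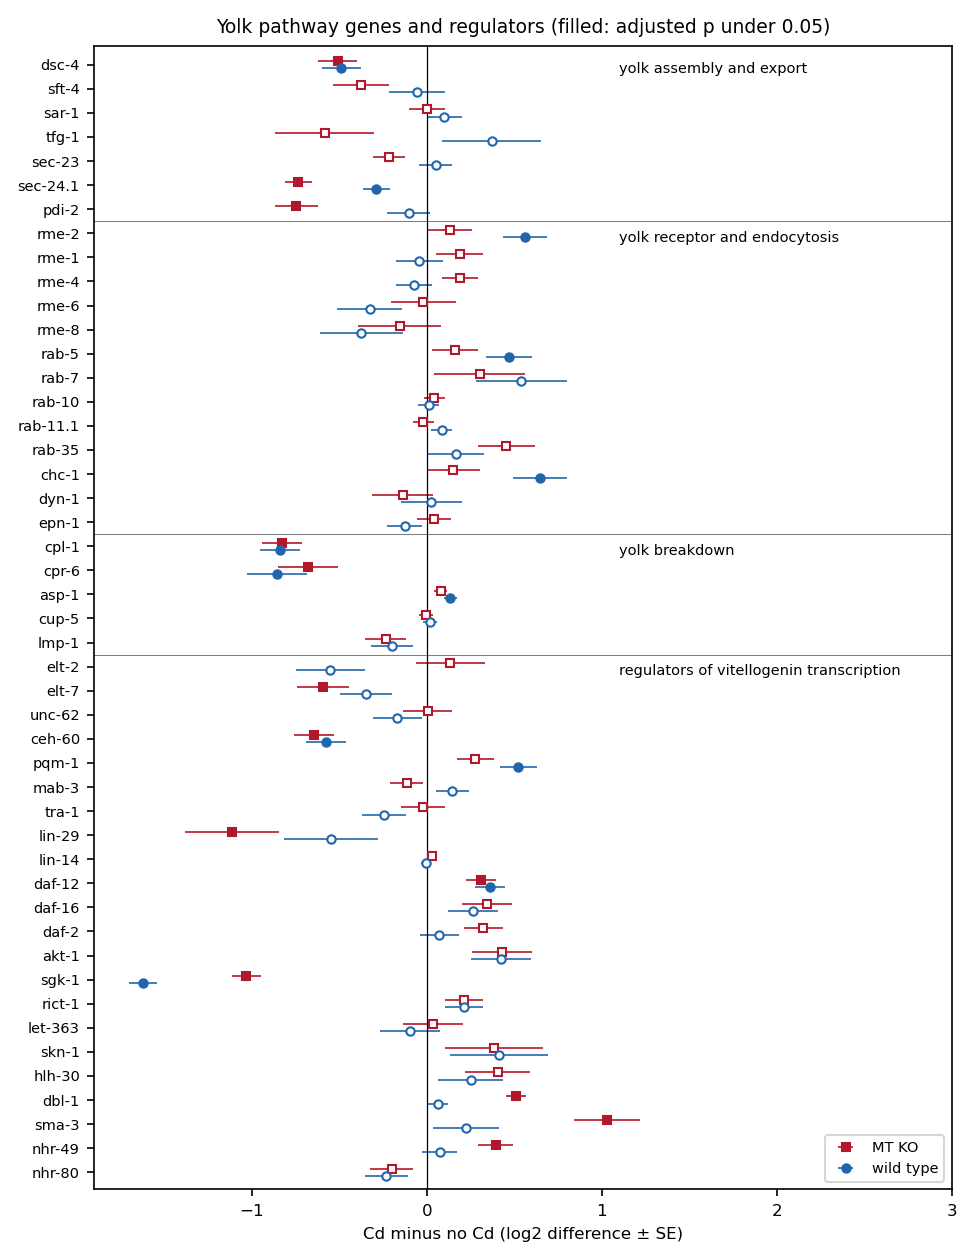
Log2 differences with Cd in MT KO and in wild type for the measured genes of the 4 yolk pathway lists; filled points passed the test, open points did not, and bars are SE. The assembly genes that passed lie below 0, the receptor and endocytosis genes that passed lie above 0, and regulators fall on both sides.

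Of 22 measured genes with a known part in vitellogenin transcription, 4 fell and 4 rose with Cd in MT KO and 2 fell and 2 rose in wild type, so the list had no single direction. The fall counts dropped to 2 in MT KO when replicate 2 without Cd or replicate 1 with Cd was left out, and the rise count to 2 when replicate 2 with Cd was. With array weights 7 genes rose in MT KO. In wild type 1 gene rose when replicate 2 or 3 without Cd was left out or with the 3' to 5' covariate, and 0 with the 6 wild-type arrays fitted alone. The kinase gene sgk-1, which acts downstream of TORC2 and promotes vitellogenin expression, read 6.15 ± 0.05 in MT KO with Cd and 7.18 ± 0.15 in MT KO without Cd, and 5.76 ± 0.12 in wild type with Cd and 7.38 ± 0.07 in wild type without Cd (SD, n = 3 each). It fell by 1.03 in MT KO (limma adjusted p 2.57e-05) and by 1.62 in wild type (limma adjusted p 2.72e-06). These falls differed between strains, with an interaction of 0.59 (SE 0.12, limma adjusted p 0.0174).

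The homeobox gene ceh-60, an activator of vit genes in the intestine, also fell in both strains. It read 4.78 ± 0.10 in MT KO with Cd and 5.42 ± 0.19 in MT KO without Cd, and 4.82 ± 0.14 in wild type with Cd and 5.40 ± 0.15 in wild type without Cd (SD, n = 3 each). The ceh-60 differences were -0.64 (limma adjusted p 0.00289) and -0.57 (limma adjusted p 0.0107). Its partner unc-62 differed by 0.004 in MT KO and -0.17 in wild type, and neither passed. The intestinal GATA factor gene elt-2, whose product is needed for vit transcription, differed by 0.13 in MT KO (limma adjusted p 0.716) and by -0.55 in wild type (limma adjusted p 0.117). The wild-type difference of elt-2 passed in 4 of 19 alternatives (limma adjusted p 0.0261 to 0.0438), among them array weights (-0.69), the filter on dim probe sets, and the fit without replicate 1 of wild type without Cd (-0.73).

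The genes dbl-1 and sma-3 of a BMP-like signal that acts on vit expression rose in MT KO. The ligand gene dbl-1 differed by 0.51 in MT KO (limma adjusted p 0.000197) and 0.06 in wild type (limma adjusted p 0.678), with an interaction of 0.45 (limma adjusted p 0.0133), a call lost with an intensity trend (0.101) and with the filter on dim probe sets (0.0508). The Smad gene sma-3 differed by 1.03 in MT KO (limma adjusted p 0.00315) and 0.22 in wild type (limma adjusted p 0.613). The zinc finger gene pqm-1, a repressor of vit genes in some settings, differed by 0.28 in MT KO (limma adjusted p 0.0968) and rose by 0.52 in wild type (limma adjusted p 0.0110, a call lost with the 6 wild-type arrays alone, at 0.0743, and with the 3' to 5' covariate, where the rise was 0.29 and the adjusted p 0.109). The MT KO difference of pqm-1 passed in 3 of 19 alternatives, among them the fit without replicate 1 of wild type without Cd (limma adjusted p 0.0278). The other regulators that fell in MT KO were lin-29, a timing factor of the larval to adult switch, at -1.11 (limma adjusted p 0.0144), and elt-7, a GATA factor of the intestine, at -0.59 (limma adjusted p 0.0176). The lin-29 call was lost without replicate 2 of MT KO without Cd (0.0519) or replicate 1 of MT KO with Cd (0.0549) and with the 6 MT KO arrays alone (0.0895). The elt-7 call was lost without replicate 1 or 2 of MT KO without Cd or replicate 1 or 2 of MT KO with Cd (0.0517 to 0.0595). Their wild-type differences were -0.55 and -0.35, and neither passed. The nuclear receptor gene daf-12 rose by 0.31 in MT KO (limma adjusted p 0.0304) and by 0.36 in wild type (limma adjusted p 0.0258), and nhr-49, a nuclear receptor gene of lipid metabolism, by 0.39 in MT KO (limma adjusted p 0.0194). The daf-12 calls were lost in 6 of 19 alternatives in MT KO and 5 of 19 in wild type. These included every fit without 1 MT KO array other than replicate 3 with Cd, and, in wild type, the fits without replicate 2 or 3 without Cd or replicate 1 or 2 with Cd. The nhr-49 call was lost in 4 of 19, including the fits without replicate 2 or 3 of MT KO with Cd. The gene mab-3, whose product represses vit genes in males, was near background in all groups.

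Markers of tissue and stage moved beside the vitellogenins. The 10 intestine markers, from the tissue that makes yolk, averaged 8.97 to 9.10 per array in MT KO with Cd and 9.35 to 9.49 in MT KO without Cd, and 8.94 to 8.995 in wild type with Cd and 9.25 to 9.34 in wild type without Cd. Of these, 4 fell and 1 rose with Cd in MT KO, and 2 fell and 2 rose in wild type, where the second rise was the asp-1 call described above. The peptide transporter gene pept-1 fell by 2.35 in MT KO (limma adjusted p 4.01e-06) and by 2.34 in wild type (limma adjusted p 4.92e-06), and the brush border actin gene act-5 by 0.84 and 0.61 (limma adjusted p 0.000216 and 0.00325). The gut esterase gene ges-1 went the other way, rising by 0.71 in MT KO (limma adjusted p 0.000194) and by 0.83 in wild type (limma adjusted p 0.000198). Intestine markers thus did not share 1 direction, and their part in the vitellogenin result was not tested.

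Sperm, moulting and oocyte markers stand for stage and germline. Of 23 measured sperm genes, which are expressed in L4 hermaphrodites, 20 fell with Cd in MT KO and 1 in wild type, and the interaction passed for 16. The wild-type count ran from 0 to 2 when 1 array was left out. The mean of the 23 sperm genes per array was 5.36 to 5.65 in MT KO with Cd and 7.49 to 8.0 in MT KO without Cd, and 6.75 to 6.92 in wild type with Cd and 7.04 to 7.47 in wild type without Cd. Moulting genes numbered 9 lower and 2 higher of 16 in MT KO, with array means of 7.31 to 7.43 with Cd and 7.64 to 7.92 without Cd. In wild type 0 of these 16 were lower and 1 was higher, counts that each ran from 0 to 2 without 1 array, with array means of 7.85 to 7.89 with Cd and 7.83 to 8.07 without Cd. Of 11 measured collagens of the adult cuticle and the annular furrows, 6 fell and 0 rose with Cd in MT KO, with a median difference of -1.09. In wild type 0 of these collagens fell and 1 rose, with a median of -0.003, and the interaction passed for 5, or 3 to 8 over the alternatives. Their mean per array was 8.46 to 8.59 in MT KO with Cd and 8.90 to 9.84 in MT KO without Cd, and 9.82 to 10.06 in wild type with Cd and 9.49 to 9.88 in wild type without Cd. The adult collagen gene col-19 was near background in all 4 groups.

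Oocyte and embryo markers, from the cells that take up yolk, numbered 1 higher and 0 lower of 17 with Cd in MT KO, a rise lost without any of 6 single arrays. In wild type 8 of 17 rose and 1 fell, opposite to the vitellogenins, and the 8 include the rme-2 call described above. The 8 dropped to 3 when replicate 2 or 3 of wild type without Cd or replicate 1 of wild type with Cd was left out, to 5 without replicate 3 of wild type with Cd, and to 4 with the 3' to 5' ratio as a covariate, while other settings gave up to 11. Their mean per array was 5.12 to 5.25 in MT KO with Cd and 5.05 to 5.17 in MT KO without Cd, and 5.53 to 5.64 in wild type with Cd and 5.13 to 5.30 in wild type without Cd. Of 9 body wall muscle markers 1 rose in MT KO, or 0 to 3 without 1 array, and 0 passed in wild type. Pharynx markers were higher in 8 of 10 in MT KO and 5 of 10 in wild type, and neuron markers in 6 of 9 in MT KO and 4 of 9 in wild type. The neuron marker unc-10, which rose in MT KO, and the pharynx marker phat-1 were near background in all 4 groups. The 5 pharynx markers became 3 without replicate 2 of wild type without Cd or replicate 2 or 3 of wild type with Cd, and 1 with the 3' to 5' covariate. The 4 neuron markers became 2 with that covariate or with the 6 wild-type arrays alone. What these stage and tissue differences contribute to the vitellogenin values was not tested.

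**Figure D5:**
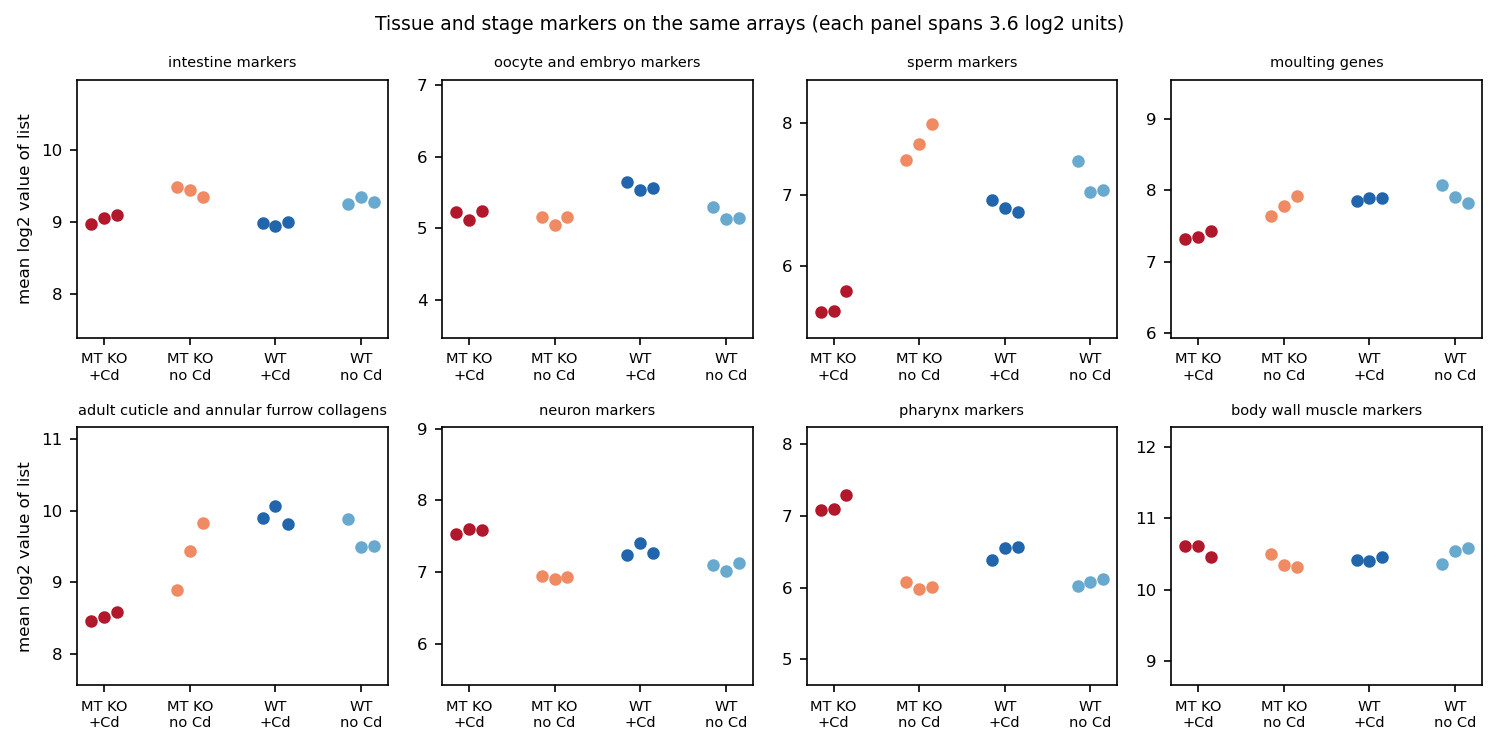
Mean log2 signal per array of the tissue and stage marker lists in the 4 groups, with 1 point per array. Sperm markers are lowest in MT KO with Cd, at 5.36 to 5.65. The mean of the intestine markers is lower with Cd in both strains, by less than the vit-1 and vit-6 probe sets. Single intestine markers moved in either direction.

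The pattern of vit-6 at 173411_s_at over the 12 arrays was most like those of Y43F8C.13, argk-1, C45B2.2, nlt-1 and nep-17 among 2037 probe sets whose group means spanned at least 1 log2 unit, with Pearson r of 0.990, 0.985, 0.985, 0.983 and 0.982. The arginine kinase gene argk-1 averaged 4.50 in MT KO with Cd and 8.15 in MT KO without Cd, and 4.58 in wild type with Cd and 9.05 in wild type without Cd. The mean of vit-1, vit-2, vit-4 and vit-5 was most like mfsd-8.1, ugt-47, Y43F8C.13, Y39D8A.1 and sec-61.B, with r of 0.985, 0.983, 0.980, 0.977 and 0.976. These arrays fall into 2 Cd levels, so any probe set that is low with Cd in both strains correlates highly.

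Of the 10 protein-coding genes directly beside the vit genes, 8 had a probe set. With Cd in MT KO, 2 of these 8 passed, against 22.5% of all probe sets: acn-1, beside vit-2, differed by -0.52 (limma adjusted p 0.00623), and spp-14, beside vit-1, by 0.22 (limma adjusted p 0.0350). The spp-14 call was lost in 10 of 19 alternatives, 7 of which left out 1 array. In wild type, against 11.9% of all probe sets, 0 of the 8 passed in the limma test or had an unadjusted p under 0.05, with differences of -0.26 to 0.06.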

How the data were processed

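Whole-animal RNA from 12 samples was hybridised to 1-colour arrays, 3 per group. The deposited values are log2 signals, 1 per probe set and array. Per the submitters' processing notes, the authors used GCRMA, which corrects background, equalises the arrays and summarises probes; neither its version nor a genome build is stated in the sources used here. The log2 scale was settled from the values, 1.56 to 14.5, with array medians of 3.98 to 4.07. Scanner intensities were not used, and the number of arrays limits the precision.

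Of 22625 features, 77 controls were left out. The remaining 22548 were fitted with limma 3.58.1 in R 4.3.3, with 1 mean per group over 12 arrays, 8 residual and 1.38 prior degrees of freedom. The 5 comparisons were tested two-sided, with Benjamini-Hochberg adjustment over all 22548 and calls at adjusted p under 0.05. The fit was tested on simulated data.

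Gene names are from the platform annotation: 20766 probe sets carry 1 symbol, of which 20701 matched RefSeq (assembly WBcel235), 887 carry several and 895 none. Named were all members. From each yolk or regulator list came up to 4 genes with the smallest adjusted p for Cd or the interaction, plus rme-2, dsc-4, elt-2, unc-62, ceh-60, pqm-1 and mab-3, and from each marker list up to 3. The genes lin-29, elt-7, nhr-49, daf-12, col-19, acn-1 and spp-14 were named after their values were seen. The 5 nearest patterns were named by Pearson r. The members and the 12 lists were chosen with earlier results of these data known. Alternatives were an intensity trend, a replicate block, quantile normalization, a filter on dim probe sets, a fit of the compared groups alone, array weights, the 3' to 5' ratio as covariate, and leaving out each array. Because the 3' to 5' ratio was lower on every array with Cd, the covariate fit cannot fully separate it from Cd.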

Additional observations from a re-analysis of the deposited data

How the results depend on the processing

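The 8 Cd calls of vit-1, vit-2 and vit-6 kept their direction and their side of the threshold in 151 of 152 alternative values. The exception was vit-2 in MT KO with the 6 MT KO arrays fitted alone, at -1.35 with an adjusted p of 0.0553. An intensity trend, a replicate block, the filter on dim probe sets and a fit of the compared groups alone cannot change a log2 difference. Nor can leaving out an array of the other strain, so the direction was fixed in those settings. The filter keeps vit-2 and vit-6 only through their groups without Cd. Leaving out 1 array, vit-6 at 190649_at ran from -3.85 to -3.47 in MT KO and -4.03 to -3.76 in wild type, and vit-2 from -1.72 to -1.08 and -1.77 to -1.32. Strain differences near 0 changed sign. Without MT KO replicate 1 without Cd, MT KO minus wild type without Cd was 0.112 at vit-2 and 0.0866 at vit-6 190649_at, the upper ends of ranges that began at -0.533 and -0.296. With Cd, vit-6 173411_s_at came to 0.0065 under quantile normalization, 0.0091 with array weights and -0.0952 to 0.0774 without 1 array, and vit-2 to -0.113 to 0.0504. The interaction of vit-2 ran from -0.151 to 0.493. In MT KO, elt-2 was -0.0260 with the 3' to 5' covariate, and unc-62 was -0.0220 under quantile normalization, -0.0034 with array weights, -0.111 with the covariate, and -0.0712 to 0.0499 without 1 array, below 0 without MT KO replicate 1 with or without Cd. The causes were not tested.

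Over all probe sets, calls with Cd in wild type numbered 2693 and 1770 with the 3' to 5' covariate. Between strains without Cd there were 371, with 586 under the filter, 593 with array weights, 23 when fitted alone, and 168 to 461 without 1 array (168 without replicate 2 of wild type, 170 without replicate 2 of MT KO). With Cd the strain count of 1930 ran from 1155, without replicate 1 of wild type with Cd, to 2139 without 1 array, and was 2731 with array weights. The interaction count of 1229 was 1869 with array weights and 823 to 1384 without 1 array.

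After subtraction of group means, 5 of 18 same-numbered pairs of arrays correlated over 0.1, with r of -0.20 to 0.24. Among pairs with other numbers it was 3 of 36, with r of -0.33 to 0.25. Whether replicate numbers pair the samples is settled neither by these values nor by the labels. A replicate block gave 5101 calls with Cd in MT KO and 2716 in wild type. Every replicate number occurs in every group, so the block cannot move a log2 difference, only its SE and p-value. At vit-6 190649_at the limma adjusted p with the block was 5.89e-05 in MT KO and 5.19e-05 in wild type. The block changed no vitellogenin call; elt-2 in wild type, which missed the threshold without it, passed with it (adjusted p 0.0339). Signals of vit-4, vit-5 and, with Cd, of vit-2 and vit-6 were near background, which limits their differences.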

Other observations

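A further 2 probe sets carry both vit-4 and vit-5 as symbols and were left out of the counts of members. At 172133_x_at the 12 arrays read 2.22 to 2.34. At 194239_x_at wild type without Cd read 2.86, 2.39 and 2.50, while the other 9 arrays read 2.22 to 2.31. The 2.86 was again on replicate 1, the array with the highest log2 ratio of 3' to 5' control signal, 2.81. Whether that ratio bears on these readings was not tested. The Cd difference of 194239_x_at was -0.01 in MT KO (limma adjusted p 0.951) and -0.32 in wild type (SE 0.097, limma adjusted p 0.0663), at signals near background.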
